A study of Arabidopsis thaliana with 69 samples.

Results

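Arabidopsis miRNAs are numbered roughly in the order in which they were described, and the 149 mature miRNAs examined here carry numbers of 4 or more digits. They were taken by name alone from the 427 mature miRNAs quantified by small RNA sequencing (sRNA-seq), and both arms of miR3440b were left out. For comparison, 141 mature miRNAs came from families that are conserved among plants, such as miR156, miR165 and miR396, and 135 were other miRNAs with numbers under 1000. All samples were Arabidopsis thaliana of the Col-0 accession. Wild-type embryos were represented by 3 libraries at each of 8 stages: preglobular and globular before the cotyledons form, 5 stages from early heart through late heart and the torpedo stages (early and late) to bent cotyledon, and finally mature green. A further 3 libraries came from globular-stage dcl1-5 embryos, which were picked by their abnormal shape from the seeds of selfed heterozygous plants. Wild-type rosette and cauline leaves and unopened floral buds were each represented by 1 library. Data on the cleavage of target mRNAs came from the same embryonic groups and from roots and shoots of week-old xrn4-5 mutant seedlings. Replicates were pools of embryos collected on different days. Levels are given as reads of 20 to 24 bases per 1000000 genome-matching reads (RPM). As these are whole embryos or organs, fewer expressing cells and less RNA per cell cannot be told apart.

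DICER-LIKE1 (DCL1) cuts miRNAs, mostly of 21 bases, out of the single-stranded hairpin of a MIR transcript. The duplex is loaded onto ARGONAUTE1, which favours small RNAs that begin with U, and the miRNA guides cleavage of complementary mRNAs. A different enzyme, DICER-LIKE3, cuts double-stranded RNA from repeats and transposons into small interfering RNAs (siRNAs) of 24 bases, many of which begin with A and direct DNA methylation through ARGONAUTE4. An annotated miRNA that arises from DCL1 should thus give a sharp peak of 20- to 22-base reads that is lost in dcl1-5, and these measurements bear on both properties. Young miRNA loci can also be cut to 23 or 24 bases by DICER-LIKE3 from long hairpins.

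The sequences on which the results turn are printed below as DNA, 5′ to 3′, with the seed (bases 2 to 8) in capitals. They were read from the RefSeq annotation and the TAIR10.1 genome, in which all 149 names were found. The first 7 gave mostly 20- to 22-base reads and show the miRNA-like end of the set.

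miR5024-3p: cCGTATCTtggccttgtcatt
miR5026: aCTCATAAgatcgtgacacgt
miR3434-5p: aCTTGGCTgattctattatt
miR8183: tTTAGTTGacggaattgtggc
miR5637: aATGCGCAactctatatttcc
miR3932b-5p: tTTGACGTgctcgatctgctc
miR5012: tTTTACTGctacttgtgttcc

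The next 6 gave mostly 23- to 24-base reads in wild-type embryos.

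miR5654-3p: tGGAAGATgctttgggatttatt
miR5659: cGATGAAGgtctttggaacggta
miR5653: tGGGTTGAgttgagttgagttggc
miR8176: gGCCGGTGgtcgcgagaggga
miR8169: aTAGACAGagtcactcacaga
miR8167f: aGATGTGGagatcgtggggatg

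In the TAIR10.1 annotation, miR5024-3p lay at chr1:16766285-16766305 on the minus strand, within an intron of AAP5, an amino acid permease gene. miR3434-5p (chr5:7583305-7583324, minus strand) lay in an intron of alpha-ADR, which encodes an adaptin subunit, and miR5637 (chr2:12270341-12270361, minus strand) in an intron of AT2G28620. miR5026 (chr4:7844612-7844632, plus strand) lay in an intron of the noncoding gene AT4G13495, and miR8183 (chr3:11747799-11747819, minus strand) in an exon of the transcribed pseudogene AT3G30110. miR3932b-5p (chr4:7890695-7890715, minus strand) and miR5654-3p (chr1:11786348-11786370, plus strand) lay outside the coding sequence in exons of AT4G13575 and AT1G32583, respectively. miR5012 (chr2:8432747-8432767, plus strand), miR5659 (chr5:16409804-16409826, minus strand), miR5653 (chr1:19026915-19026938, minus strand), miR8169 (chr3:8836359-8836379, plus strand) and miR8167f (chr5:24002239-24002260, minus strand) overlapped no other annotated gene. miR8176 (chr4:11795199-11795219, plus strand) lay within the small nucleolar RNA gene of AtsnoR109.

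The 149 members held 128 distinct sequences, because 33 members shared their sequence with another member. miR8167a to miR8167f were 6 copies of 1 sequence, miR5645 had 5 copies and miR5635 had 4. Reads from such copies cannot be assigned to 1 locus, and the deposited values had been split among the matching loci. The 128 sequences had 125 different seeds. The seed of miR5653 was also that of miR398b-5p and miR398c-5p, that of miR5029 was also that of miR400, and that of miR1886.2 was also that of miR774b-5p. miR5640 and miR1886.1 shared a seed with each other.

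Embryonic libraries held 1665910 to 52374394 genome-matching reads, the leaf library 687369 and the floral bud library 2889901. One read was therefore worth far more RPM in leaf or early heart than in mature green, and 3 reads corresponded to 4.36 RPM in leaf and 1.04 RPM in floral bud. In the dcl1-5 mRNA-seq libraries DCL1 itself was at 0.0226, 0.0359 and 0.0268 TPM (transcripts per 1000000), from at most 5 estimated counts a library, and total miRNA fell from 25728 ± 8430 RPM in wild-type globular embryos to 317 ± 110 RPM in dcl1-5 (SD, n = 3 each). Wild-type mRNA-seq was not analysed here.

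Most of these high-numbered miRNAs were rare in embryos. Reads were found for 121 of the 149 (81.2%) in at least 1 of the 24 wild-type libraries, close to the 226 of 276 (81.9%) of the miRNAs with lower numbers. However, only 39 reached a mean of 1 RPM in any stage, against 124 of 276, and only miR5026, miR5024-3p, miR3932b-5p and miR5659 reached 10 RPM. Reads in all 24 wild-type libraries were found for 4 members, miR5024-3p, miR5026, miR5642a and miR8183. A further 28 had none, of which 20 were also absent from dcl1-5, leaf and floral bud. These 20 included miR2111a-5p and miR2111b-5p, of a family known from phosphate starvation. A library with no read allows up to 1.80 RPM in the shallowest embryonic library and 0.0573 RPM in the deepest.

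The number detected rose with stage, from 19 to 23 members per preglobular library to 90 to 94 per mature green library. Depth differed between stages as well. If each library were reduced to 1665910 reads, the expected number would be 16.2 ± 1.46 in preglobular, 22.7 ± 5.31 in globular, 38.6 ± 1.94 in bent cotyledon and 44.0 ± 2.32 in mature green embryos (SD, n = 3). The order of the stages was the same at equal depth. Equal depth does not correct for the amount of RNA or for amplification. Bent cotyledon RNA diluted to 50 and 5 ng gave expected numbers of 28.6 and 19.9 at that depth (1 library each). A rise with stage therefore cannot be told apart from differences in RNA amount or PCR. Of the 121 detected members, 39 had their highest mean in mature green, 22 in bent cotyledon and 15 in late torpedo, but 12 in preglobular.

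**Figure D1:**
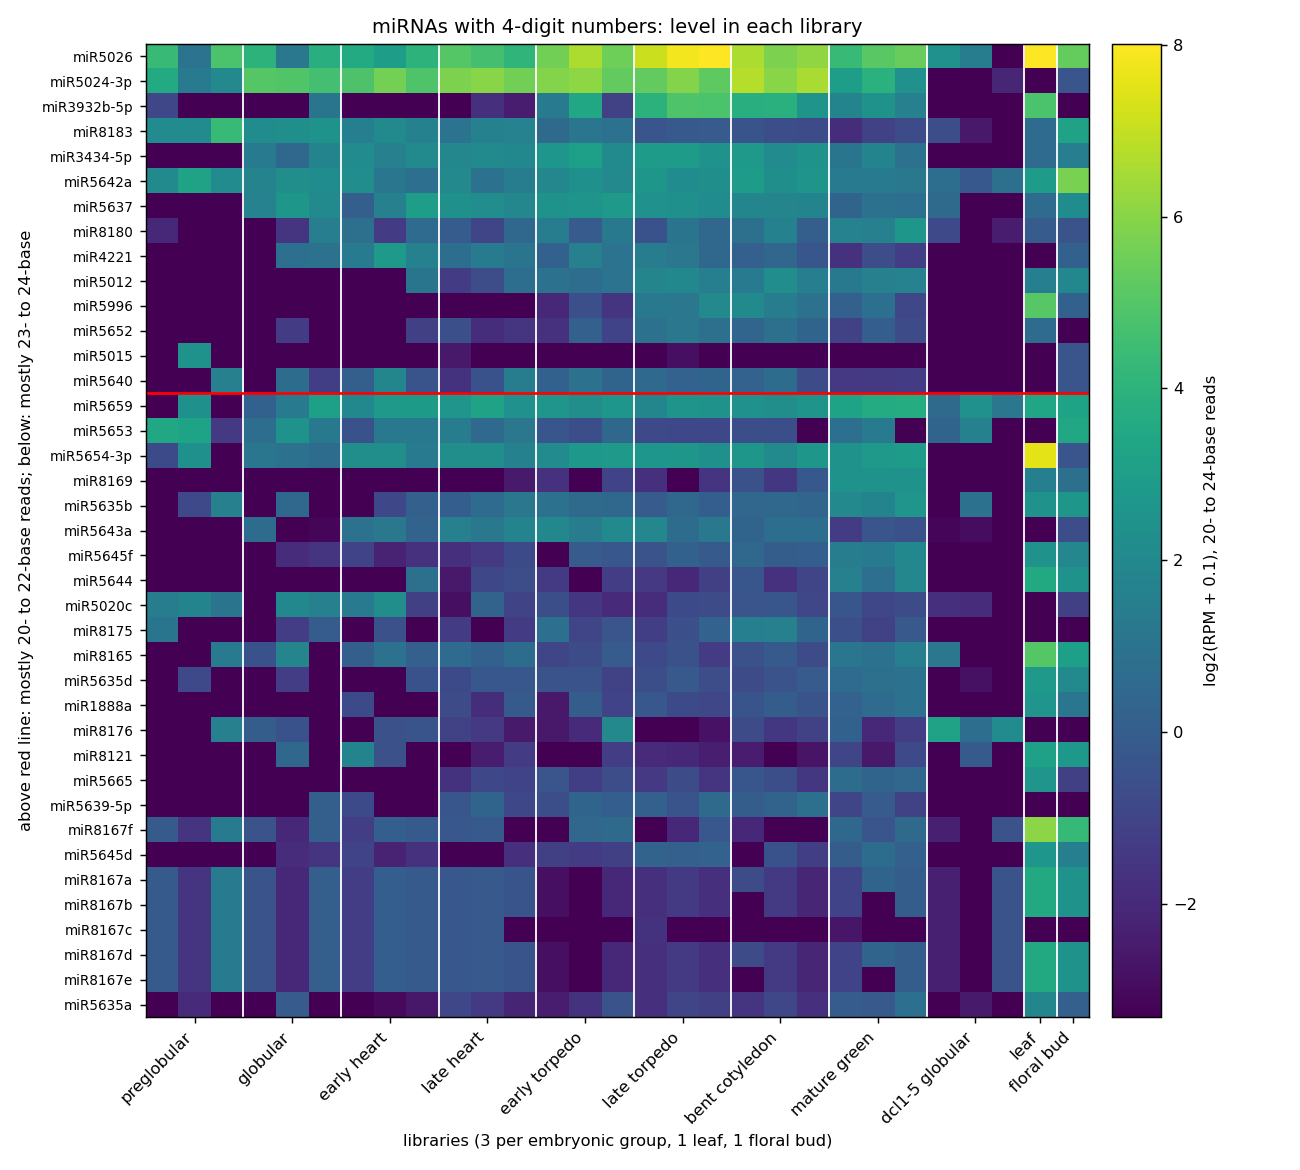
Level of the 39 members that reached a mean of 1 RPM in a wild-type stage, as log2(RPM + 0.1), in each of the 27 embryonic libraries and in leaf and floral bud; each column is 1 library. miR5026 and miR5024-3p were the most abundant, and the 3 dcl1-5 columns are dark for most members above the red line (mostly 20- to 22-base reads).

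As a group the members kept more of their level in dcl1-5 than other miRNAs did, and most of the reads that remained had 23 or 24 bases. Their summed level was 83.5 ± 9.58 RPM in wild-type globular embryos and 19.0 ± 5.72 RPM in dcl1-5 (SD, n = 3 each), which is 22.8% of the wild-type level. The conserved families kept 1.16% (11830 ± 4243 to 137 ± 57.3 RPM) and the other miRNAs under 1000 also 1.16%. The members' 20- to 22-base reads fell from 63.1 ± 2.84 to 4.65 ± 1.49 RPM, and their 23- to 24-base reads were 20.4 ± 6.78 and 14.4 ± 4.52 RPM. The ranges of the 2 genotypes were far apart for the shorter reads and overlapped for the longer ones. That overlap rests on 1 member, miR8176, and without it the ranges of the longer reads do not overlap. miR8176 had 9.02, 1.60 and 4.26 RPM of the longer reads in dcl1-5, and 0.929, 0 and 0 RPM in the wild type. Reads of 23 to 24 bases thus made up 19.0 to 29.5% of the members' level in wild-type globular libraries and 70.8 to 78.0% in dcl1-5, whereas in the conserved families they made up 2.23 to 3.12% and 1.88 to 3.29%. The members took 0.268 to 0.404% of all miRNA reads in wild-type globular embryos and 3.10 to 9.27% in dcl1-5.

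**Figure D2:**
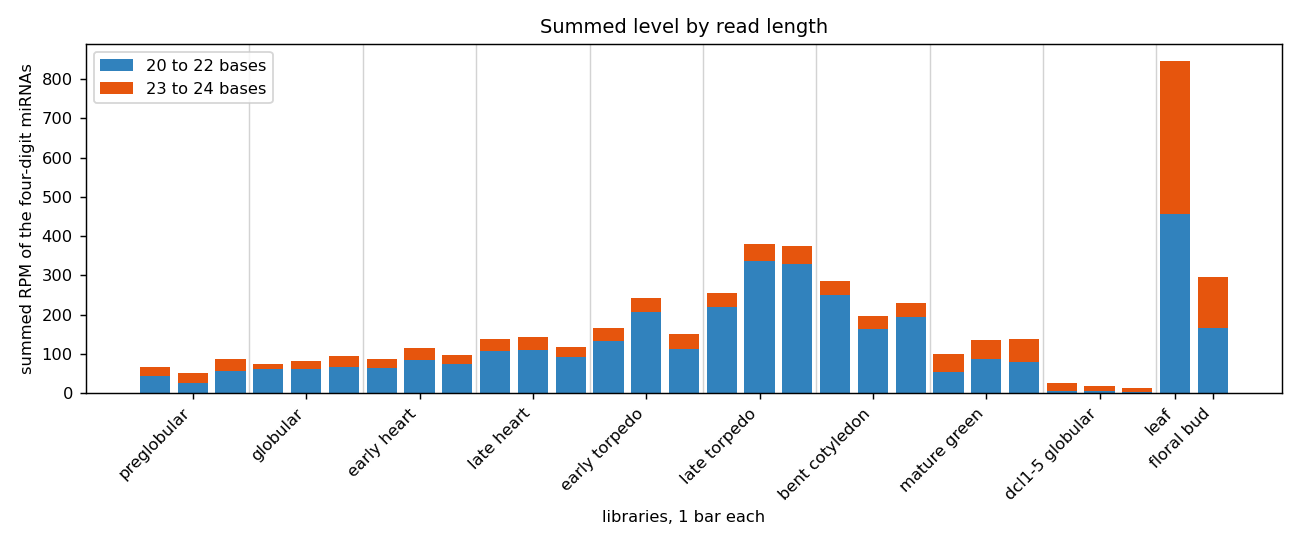
Summed level of the 149 members in each library in RPM, split into 20- to 22-base reads (blue) and 23- to 24-base reads (orange); each bar is 1 library. The blue part is nearly gone in the 3 dcl1-5 bars (2.93 to 5.60 RPM), and the orange part is not (10.3 to 19.2 RPM).

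To separate the 2 kinds of loci without using the libraries of the dcl1-5 comparison, the share of 23- to 24-base reads was taken from the 7 wild-type stages other than globular. Of the 149 members, 84 had at least 20 reads there. Exactly 42 of them (50.0%) had at least 50% of their level in 23- to 24-base reads, and 42 had most of it in 20- to 22-base reads. Identical copies were counted separately here, and the 2 classes held 30 and 41 distinct sequences, respectively. In the comparison sets, 6 of 88 conserved miRNAs and 8 of 75 others fell in the longer class. The most common read length was 21 bases for 31 members, 20 for 7, 22 for 2, 23 for 8 and 24 for 36. Shares were spread widely: 32 members were at or below 20%, 14 at or above 80% and 38 in between. Near the boundary, miR5642b (42.1%) and miR5635c (42.1%) fell on the shorter side, and miR5635b (53.4%) and miR1888a (54.2%) on the longer side. miR5635c and miR5635b are copies of the same sequence, so their classes differ only in how its reads were split among loci.

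Features that the read lengths did not use are given next for both classes, without a test. Since identical copies share these features, they were counted over distinct sequences. The 42 members of the shorter class had 41 sequences, of which 25 began with T and 15 with A, and the 42 of the longer class had 30, of which 9 began with T and 16 with A. The miR5635 sequence, with copies in both classes, is counted in both. More than 1 match in the genome was found for 10 of the 41 and for 14 of the 30, with up to 8 and 15 matches, respectively. By locus, members of the shorter class lay on the same strand in an intron of a protein-coding gene in 12 of 42 cases, and those of the longer class in 1 of 42. No other annotated gene overlapped 14 of the shorter and 31 of the longer class. The annotated precursors of the shorter class folded with a median minimum free energy of -44.2 kcal/mol per 100 bases, and those of the longer class with -38.4.

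Individual profiles were sharp in some members and diffuse in others. Of 14693 miR5024-3p reads in the 7 stages, 96.0% had 21 bases, and of 26401 miR5026 reads 85.8%. For miR3434-5p 85.3% of 1496 reads had 20 bases, its annotated length. miR4221, annotated at 22 bases, had 42.0% of its 424 reads at 20 bases and 43.6% at 21. In contrast, miR5653 was spread over 24 (51.9%), 23 and 22 bases (12.4%), and miR5659 over 23 (38.1%), 24 (32.4%) and 22 bases (17.5%). miR5654-3p stood apart from the rest of the longer class, with 91.8% of 1827 reads at 23 bases, its annotated length, and 0.3% at 24.

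**Figure D3:**
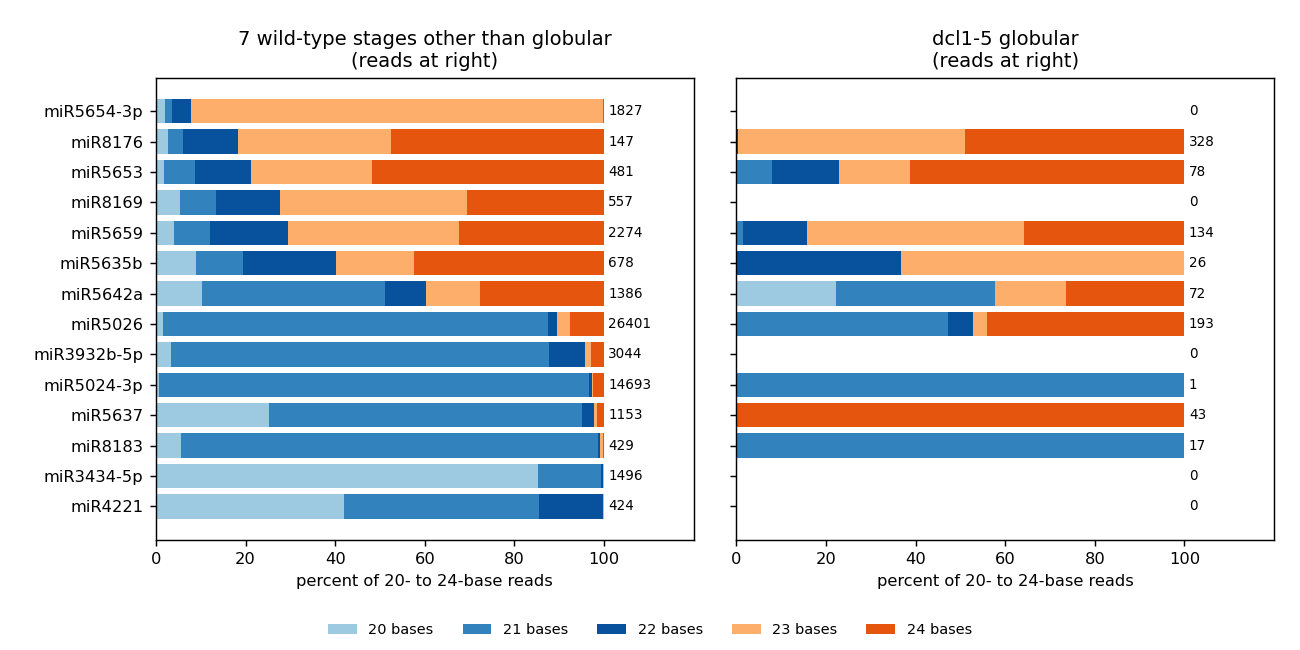
Share of 20- to 24-base reads at each length for the 12 members with the highest stage mean and for miR4221 and miR8176, in the 7 wild-type stages other than globular (left) and in dcl1-5 (right); the number of reads is at the right of each bar. miR5654-3p is almost wholly 23 bases on the left and has no read on the right, whereas miR8176 has 328 reads in dcl1-5, nearly all of 23 and 24 bases.

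The comparison of dcl1-5 with wild-type globular embryos asked which members need DCL1. Among all miRNAs tested with edgeR, 35.1% were lower and 0.00% higher in dcl1-5 (adjusted p under 0.05), and 4 of the 47 members tested were lower and none higher. At an unadjusted p under 0.05, 5 members were lower and 0 higher. The 4 were miR5024-3p, miR3434-5p, miR8183 and miR5654-3p. By class, 3 of 17 tested members with mostly 20- to 22-base reads were lower, and 1 of 30 with mostly 23- to 24-base reads. Identical copies were counted separately here and in the counts of tests below. The 30 include 6 miR8167 and 5 miR5645 copies with identical values, so they are not independent. With identical copies summed, the same 4 members were called lower. Of the conserved miRNAs tested, 35 of 79 were lower. The median log2 ratio of mean RPM, with miRNAs at 0 set to the level of 3 reads over a group, was -2.66 in the shorter class, -1.24 in the longer class and -3.26 over all miRNAs tested. The median of the longer class is the value of the miR8167 copies. Only 47 members had the 10 reads needed to be tested, so these counts do not describe all members.

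miR5024-3p showed the largest loss. It had 32.7, 30.6 and 24.9 RPM in the 3 wild-type globular libraries, and 0, 0 and 0.133 RPM in dcl1-5, where a single read was found. Every wild-type library was far above every dcl1-5 library. The log2 fold change was -9.79 ± 1.73 (SE, edgeR adjusted p = 3.88e-05). Each SE printed with an edgeR change is approximate: the size of the change divided by the square root of its F statistic. It cannot be relied on where a group had no or almost no reads. Its partner strand, miR5024-5p, missed the threshold (edgeR adjusted p = 0.141).

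miR3434-5p had 2.35, 1.26 and 3.32 RPM (234 reads) in wild-type globular embryos and no read in dcl1-5. The groups did not overlap, and the mean was at least 40.1-fold lower in dcl1-5, taking 3 reads over the 3 mutant libraries as the limit (edgeR adjusted p = 0.00783). miR8183 had 4.40, 4.88 and 5.42 RPM in the wild type and 0.531, 0.0695 and 0 RPM in dcl1-5. All 3 mutant libraries were below all wild-type libraries, with a log2 fold change of -4.47 ± 1.70 (SE, edgeR adjusted p = 0.0395). This call was lost when any 1 of 4 libraries was left out (globular 1 or 2, dcl1-5 2 or 3).

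miR5654-3p was lost together with the shorter miRNAs in spite of its 23-base reads. It had 2.11, 1.78 and 1.51 RPM (144 reads) in wild-type globular embryos and no read in dcl1-5, at least 31.2-fold lower, and the groups did not overlap (edgeR adjusted p = 0.0169). Without dcl1-5 library 1 or 2 the call was lost. When its 23- to 24-base reads were tested alone the adjusted p was 0.0601.

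Separate tests of short and long reads gave different calls. With 20- to 22-base reads alone, 5 of 32 members were lower, against 39.5% of the 152 miRNAs tested: miR5024-3p, miR3434-5p and miR8183 again, plus miR5637 and miR4221. With 23- to 24-base reads alone, none of 37 members was lower or higher at the adjusted threshold, against 10.5% lower among the 76 miRNAs tested (edgeR). At an unadjusted p under 0.05, 2 members were lower and 1 higher. DESeq2 with the same library sizes called 2 members lower.

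For miR5637 the call depended on the read length. Its 20- to 24-base level was 3.16, 6.26 and 4.22 RPM in the wild type and 1.43, 0 and 0 RPM in dcl1-5, and this difference missed the threshold although the groups did not overlap (edgeR adjusted p = 0.150). All 43 dcl1-5 reads were of 24 bases and came from 1 library, whereas no 23- or 24-base read was found in the 3 wild-type globular libraries. With 20- to 22-base reads alone its level fell by 9.71 ± 2.07 on the log2 scale (SE, edgeR adjusted p = 0.000171). miR4221 had 0, 1.67 and 1.85 RPM in the wild type and no read in dcl1-5, so the groups overlapped at 0. Its adjusted p was 0.0559 with all reads and 0.0492 with the shorter ones, and the latter call was lost when any 1 library other than globular 1 was left out.

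miR5026 kept part of its level. It had 16.1, 2.24 and 13.6 RPM in wild-type globular embryos and 5.17, 2.57 and 0 RPM in dcl1-5. The ranges overlapped, and the log2 fold change of -2.03 ± 1.40 was not past the threshold (SE, edgeR adjusted p = 0.219). Of its 193 dcl1-5 reads, 91 had 21 bases and 85 had 24 bases, whereas 24-base reads made up 7.6% of its reads in the 7 wild-type stages. miR5642a had 3.27, 4.78 and 4.43 RPM against 1.59, 0.759 and 1.73 RPM, which did not overlap but missed the threshold (edgeR adjusted p = 0.334).

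Among members with mostly 23- to 24-base reads the values often overlapped between genotypes. Of the 6 that had at least 1 RPM in either, 2 were below 10% of their wild-type mean in dcl1-5 and 3 were at or above 50%, and of 8 such members in the shorter class 4 and 0, respectively. miR5659 had 1.05, 2.36 and 8.36 RPM in wild-type globular embryos and 1.43, 5.21 and 2.13 RPM in dcl1-5, with all mutant values inside the wild-type range (log2 fold change -0.43 ± 1.40, SE, edgeR adjusted p = 0.809). The interval of 1 such approximate SE on either side is too wide to call the levels equal. miR5653 had 1.61, 5.38 and 2.31 RPM against 1.14, 3.05 and 0 RPM, which overlapped although the mean was 2.22-fold lower. miR5020c had means of 2.24 RPM in the wild type and 0.124 RPM in dcl1-5, 18.1-fold lower, but its groups also overlapped and missed the threshold (edgeR adjusted p = 0.130). Each of the 6 miR8167 copies was given the same value in these libraries, 0.590 ± 0.415 RPM in the wild type and 0.249 ± 0.348 RPM in dcl1-5 (SD, n = 3 each).

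A few tested members had higher means in dcl1-5, and miR8176 was the sole one of them whose groups did not overlap. It had 0.929, 0.632 and 0 RPM in wild-type globular embryos and 9.05, 1.60 and 4.26 RPM in dcl1-5, and every mutant library was above every wild-type library. Across all miRNAs tested, 0.585% did so, which is miR8176 itself, and 39.2% were lower without overlap, among them 6 of the 47 members. Its log2 fold change of 3.26 ± 1.69 missed the threshold (SE, edgeR adjusted p = 0.137). In dcl1-5, 327 of its 328 reads had 23 or 24 bases, and 273 of the 328 came from the first library. It also had 226 reads of 25 to 30 bases in the wild-type libraries, more than its 173 reads of 20 to 24 bases, and its sequence is part of AtsnoR109. miR5646 had means of 0.0191 RPM in the wild type and 0.242 RPM in dcl1-5 (edgeR adjusted p = 0.381). miR5662 had no wild-type globular read and 0.774, 0.0695 and 0 RPM in dcl1-5 (edgeR adjusted p = 0.176). The groups of both overlapped at 0.

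**Figure D4:**
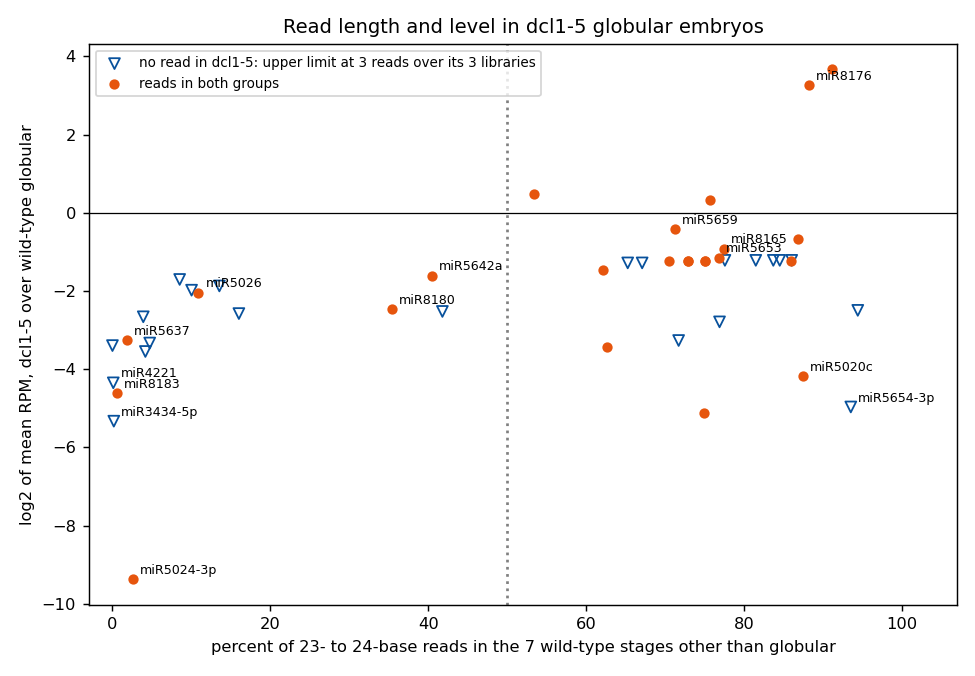
Log2 ratio of mean RPM in dcl1-5 over wild-type globular embryos against the share of 23- to 24-base reads in the 7 other wild-type stages, for the tested members with globular reads; triangles had no read in dcl1-5 and are drawn at the limit set by 3 reads. miR5024-3p is lowest at the left. At the right the points spread from miR5643a, miR5654-3p and miR5020c, which lie lowest, to miR8176 and miR5646, which lie above 3.

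These calls depend on scaling to genome-matching reads. Scaling to total miRNA reads, which themselves fell in dcl1-5, raised the log2 values by a median of 5.96, and then no member was lower and 2 (miR5659 and miR8176) were higher. With DESeq2's own size factors 1 member was lower and 13 were higher. The direction for miR8183 turned under both scalings and with TMM factors.

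Across wild-type development, 34 of the 92 members tested differed among the 8 stages, against 51.8% of the 280 miRNAs tested (edgeR, F test). They were 23 of 42 members with mostly 20- to 22-base reads and 11 of 42 with mostly 23- to 24-base reads. Between pre-cotyledon stages (preglobular and globular) and transition stages (early heart to bent cotyledon), 15 members rose (background 29.3%) and 4 fell (background 5.71%). Between the transition stages and mature green, 15 members rose (background 14.3%) and 4 fell (background 12.9%). The median log2 change into mature green was 1.17 for the tested members and 0.63 for all tested miRNAs. The split of calls moved with scaling: when scaled to total miRNA reads, 11 members rose and 10 fell into transition, and 27 rose and 3 fell into mature green.

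PCR cycle numbers were tried over a higher, overlapping range for globular and earlier samples than for later ones, and those used for each sequenced library are not given in the sources used here. The early heart libraries were the shallowest, with 1665910 to 2957950 reads. Any difference in amplification cannot be told apart from stage in the first contrast. The contrast averages the stages on a log scale, so a stage without reads weighs heavily, and 66 of the 92 members tested had at least 1 such stage. A member with such stages on both sides of a contrast could hardly be called, which limits the counts above.

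miR5026, the most abundant member, was at its highest in late torpedo embryos (205 ± 58.9 RPM, SD, n = 3). It had 16.1, 2.24 and 13.6 RPM in globular, 48.1, 98.8 and 46.1 RPM in early torpedo, 139, 227 and 250 RPM in late torpedo and 97.1, 54.6 and 70.9 RPM in bent cotyledon embryos. All late torpedo libraries were above those of every other stage. Its mean in mature green was 32.0 ± 11.4 RPM (SD, n = 3). The change into transition was 1.90 ± 0.45 on the log2 scale (SE, edgeR adjusted p = 0.00190).

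miR5024-3p rose earlier than miR5026 and peaked later, in bent cotyledon embryos. From 12.2, 2.50 and 3.90 RPM in preglobular embryos it was at 32.7, 30.6 and 24.9 RPM in globular and 108, 63.9 and 96.1 RPM in bent cotyledon embryos. It was at 8.04, 14.9 and 5.21 RPM in mature green embryos, below every library from globular to bent cotyledon. The log2 change was 1.98 ± 0.34 into transition (SE, edgeR adjusted p = 5.83e-05) and -2.51 ± 0.48 into mature green (SE, adjusted p = 0.000506). In leaf it had no read.

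A group with 20- to 21-base reads appeared at or after the globular stage. miR3434-5p had no read in the 3 preglobular libraries and 4.21 to 8.40 RPM in the early and late torpedo libraries. Its rise into transition was 5.30 ± 0.57 on the log2 scale (SE, edgeR adjusted p = 2.18e-07). That size owes much to the preglobular stage without reads, as the globular libraries already had 1.26 to 3.32 RPM. miR5637 likewise had no preglobular read and 3.16 to 6.26 RPM in globular libraries. It was 3.01-fold lower in mature green than in the transition stages (adjusted p = 0.0307), a call lost without any 1 of the 3 mature green libraries and when scaled by TMM, total miRNA or DESeq2's own factors. miR4221 peaked in early heart embryos at 2.40, 6.60 and 3.04 RPM and was down to 0.206 to 0.549 RPM in mature green embryos (edgeR adjusted p = 0.0357). That call was lost without late torpedo library 1, without any 1 mature green library, and with TMM.

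miR5012 was first seen in 1 early heart library (0, 0 and 2.03 RPM) and reached 3.43, 3.76 and 2.88 RPM in late torpedo embryos. With no read in 6 pre-cotyledon libraries, its mean over the 15 transition libraries was at least 68.3-fold higher than 3 reads there would give (edgeR adjusted p = 5.64e-06). The call was lost without early heart library 3, the single one of that stage with reads. miR1888a and miR5644 also had no pre-cotyledon read and were at least 16.9-fold and 12.6-fold higher (adjusted p = 0.000177 and 0.00106), and their calls were lost without early heart library 1 and 3, respectively. Those libraries held their only early heart reads, so the same limit applies. miR5643a, with 66.4% of its reads at 24 bases, was 9.62-fold higher in the means of the transition stages (adjusted p = 0.000746).

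A group of 4 members ran the other way. miR8183 had 4.28, 4.33 and 20.0 RPM in preglobular embryos, 4.40, 4.88 and 5.42 RPM in globular and 0.177, 0.377 and 0.500 RPM in mature green embryos. One preglobular library was far above its partners, but the decline continued at every later stage mean. The log2 change was -2.18 ± 0.34 into transition (SE, edgeR adjusted p = 1.62e-05) and -2.07 ± 0.55 into mature green (SE, adjusted p = 0.00879), the latter lost without mature green library 1. miR5653 had 11.1, 9.49 and 0.267 RPM in preglobular and 0.465, 0.457 and 0.452 RPM in late torpedo embryos. The last of these preglobular libraries was below every late torpedo library (edgeR adjusted p = 0.00416 into transition). miR5020c and miR8167c were 2.80-fold and 3.39-fold lower in the transition means. miR8167c is 1 of 6 identical copies, and miR8167a, miR8167b, miR8167d, miR8167e and miR8167f were not called in this contrast, so single copies cannot be read. With the 6 copies summed, their sequence was lower in transition (log2 change -1.38 ± 0.45, SE, edgeR adjusted p = 0.0150). With 20- to 22-base reads alone the direction for miR5020c turned.

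**Figure D5:**
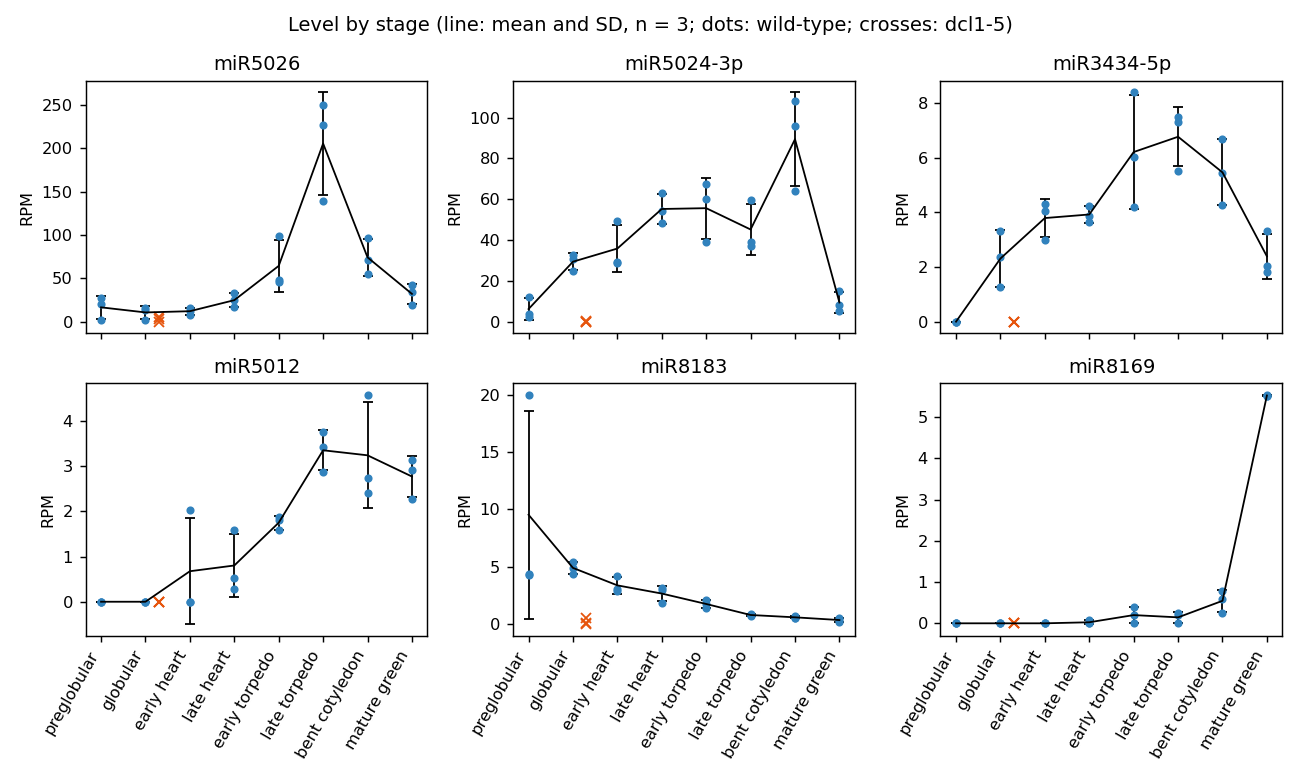
Level in RPM by stage for 6 members; dots are wild-type libraries, the line joins the stage means with SD bars (n = 3), and crosses are dcl1-5 globular libraries. miR5026 peaks in late torpedo, miR5024-3p in bent cotyledon and miR8169 in mature green embryos, whereas miR8183 declines from the preglobular stage on.

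miR8169 was the clearest mature green member. It had no read in the 9 libraries up to early heart, 0.258 to 0.778 RPM in bent cotyledon and 5.51, 5.52 and 5.54 RPM in mature green embryos. The groups were far apart, with a log2 change of 6.05 ± 0.77 into mature green (SE, edgeR adjusted p = 3.75e-05). Its reads were of 23 (41.8%) and 24 bases (30.5%). miR5651, miR5649a, miR5638b and miR5635c had the next largest fold changes into mature green, and their mature green means were 0.226 to 0.752 RPM. With identical copies summed, the miR5635 sequence missed the threshold (edgeR adjusted p = 0.0551) and the miR5649 sequence passed it (adjusted p = 0.00896). None of the 4 was called with the filterByExpr filter, miR5651, miR5649a and miR5635c were not called with DESeq2 on genome-matching reads, and miR5649a was not called without mature green library 2. For miR5651 under both of these settings, and for miR5638b under filterByExpr, no adjusted p was given, so these are not failed tests. For miR5649a and miR5635c an adjusted p was likewise missing under at least 1 of these settings. miR5659, with 9.43, 12.3 and 12.9 RPM in mature green and 4.79 to 5.71 RPM in bent cotyledon embryos, was not called (edgeR adjusted p = 0.276). miR5996 was called higher in mature green although its mean was 1.04 RPM there and 1.20 RPM in the transition stages, as it had no read in 2 of the 5 transition stages that the contrast averages on a log scale. The call was lost without mature green library 1 or 2.

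miR3932b-5p had reads in 1 preglobular library (0.438 RPM), 1 globular library (2.02 RPM) and 2 late heart libraries (up to 0.191 RPM), and none in early heart. It then had 2.43, 10.8 and 0.363 RPM in early torpedo and 15.5, 29.4 and 27.5 RPM in late torpedo embryos. It differed among stages (edgeR F test, adjusted p = 0.000711), but its change into transition had an SE of 60.7 on the log2 scale and cannot be read, as it had no early heart read. miR5654-3p had 4.17 to 6.62 RPM in all libraries from early torpedo to bent cotyledon and was called higher in transition (edgeR adjusted p = 0.0240). That call was lost without preglobular library 1 and when scaled by TMM, total miRNA or DESeq2's own factors, and it missed the threshold over the 8 stages (F test, adjusted p = 0.219). miR5642a had 1.67 to 7.45 RPM from early heart to bent cotyledon and also missed it (F test, adjusted p = 0.181). miR5635b had 3.90, 3.32 and 5.83 RPM in mature green embryos and at most 2.93 RPM in any earlier library, and missed the threshold (adjusted p = 0.0858). miR5015 rested on 1 library, with 5.33 RPM in preglobular library 2 and at most 0.0720 RPM in any other embryonic library.

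The remaining members at 1 RPM or more in an embryonic stage were miR8180, miR5645f, miR5645d, miR8175, miR8165, miR5652, miR5640, miR5635d, miR5635a, miR8121, miR5665, miR5639-5p and the miR8167 copies, with highest stage means between 1.11 and 4.18 RPM. miR5652, with 90.1% of its reads at 21 bases, lay antisense to the coding sequence of AT1G63130, a pentatricopeptide repeat gene known to give rise to trans-acting siRNAs. It was found in a single pre-cotyledon library and was 17.6-fold higher in the transition means (edgeR adjusted p = 0.00430). Without early heart library 3, which held its only early heart read, the call was lost, with the same limit as for miR5012.

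Some members had more RPM in leaf or floral bud than in any embryonic library. With 1 library each, leaf and floral bud allow no test, and exact 95% Poisson intervals, like the limits set by 3 reads, cover counting error only, since PCR copies were not told apart. A library without reads was set to its limit of 3 reads. In 20 members, with 16 distinct sequences, the lower bound in leaf or floral bud lay above all 24 wild-type embryonic libraries, which is 13.4% of the 149 against a background of 26.5% of all 427 miRNAs. Of these, 4 had mostly 20- to 22-base reads, 13 mostly 23- to 24-base reads and 3 fewer than 20 embryonic reads, and miR8167 copies were 5 of them. miR5654-3p reached 188 RPM in leaf (upper bound 223), against at most 7.29 RPM in any wild-type embryonic library and 0.692 RPM in floral bud. Of its 129 leaf reads 126 had 23 bases. miR8167f was given 66.1 RPM in leaf and 19.2 RPM in floral bud, and its identical copies miR8167a and miR8167c 11.8 and 0 RPM in leaf, so only the sequence and not the locus can be read as abundant there. miR8165 had 32.0 RPM in leaf. miR5996 and miR1886.2, both with mostly 20- to 22-base reads, had 33.5 and 24.7 RPM in leaf. miR5642a had 53.3 RPM in floral bud (interval 45.2 to 62.4) and 7.27 RPM in leaf, and miR1887 had 14.2 RPM in floral bud and no read in wild-type embryos. miR5026 in leaf (258 RPM, interval 221 to 298) overlapped its 2 highest late torpedo libraries. Members named in leaf at 1.45 RPM had a single read there.

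Cleavage of target mRNAs was read out by nanoPARE, which sequences capped and uncapped 5′ ends of transcripts, and the deposited tables list candidate sites with adjusted p-values from the EndCut program. The 33 nanoPARE libraries were 3 for each of the 8 wild-type embryonic stages, for globular dcl1-5 embryos, and for seedling roots and shoots of xrn4-5 mutants, which lack a cytoplasmic exoribonuclease that degrades uncapped RNA. Of 126 miRNAs in the tables, 31 were members. Only miR5012 had a site below 0.05 in at least 2 of 3 replicates of a group, against 23 of 51 conserved miRNAs and 10 of 43 others. The site was in AT1G53700 (PK3AT, a protein kinase gene) at transcript position 1392, with 0.189 and 0.398 RPM of 5′ ends and adjusted p-values of 0.0357 and 0.0321 (EndCut's own, across the sites of a library) in early heart libraries 1 and 2. The paper states that, bent cotyledon aside, the wild-type embryo RNA pools served both sRNA-seq and nanoPARE. Equal library numbers are not stated to mark the same pool. In early heart sRNA-seq libraries 1, 2 and 3, miR5012 had 0, 0 and 2.03 RPM. It was listed in none of the other nanoPARE libraries. Sites of miR4221, miR5024-3p, miR5645d and miR8180 were below 0.05 in single libraries of a group. The miR4221 site in AT5G08139 was below the threshold in 1 early heart and 1 bent cotyledon library, the latter with 5.64 RPM. It was also listed in dcl1-5 libraries 1 and 2 at 0.110 and 0.137 RPM, not below the threshold, and miR4221 had no sRNA-seq read in dcl1-5. The miR5024-3p site was in TPL, which encodes the corepressor TOPLESS, with 1.07 RPM in a single early heart library. Allen scores, which rise with mismatches between miRNA and target, were 5.5 for the AT5G08139 site, 4.5 for the TPL site and 3 for the miR5012 site.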

How the data were processed

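The authors trimmed sRNA-seq reads with Cutadapt, aligned them to TAIR10 with STAR without mismatches, reassigned multimapping reads by a scheme that favours loci already rich in reads, and assigned reads to annotated mature miRNAs with BEDtools. Tool versions were not given in the sources used here. The deposited expected counts per read length are therefore fractional for repeated sequences, and the authors divided them by genome-matching reads to give RPM. The dcl1-5 mRNA-seq TPM and estimated counts were made by the authors with kallisto. The deposited nanoPARE tables hold, for each site, an RPM, an Allen score of pairing, a fold ratio over background and an adjusted p-value from EndCut. These p-values are the authors' site calls and were used for detection only, and the ratio was not used.

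Expected counts of 20 to 24 bases were rounded and tested with edgeR 4.0.16 (quasi-likelihood, robust, genome-matching reads as library size) over all miRNAs with at least 10 reads in a fit, with Benjamini-Hochberg adjustment at 0.05. Fits used the 3 globular and 3 dcl1-5 libraries, or the 24 wild-type libraries, with the stages weighted equally in each phase. The SE values were computed back from the log2 change and the F statistic and were not an output of edgeR. The method was also run on simulated counts with the same spread for every miRNA and as many rises as falls. Those settings differ from the broad loss of miRNAs in dcl1-5, so they do not show how reliable the dcl1-5 calls are. Precursors were folded with RNAfold 2.7.2. limma 3.58.1 and DESeq2 1.42.0 served as alternatives, along with other scalings, filters, read lengths and left-out libraries. Replicates were said to come from separate plants and days. Depths were 1665910 to 52374394 reads, which sets the precision of each level.

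The members and lists were chosen with earlier results of these data known. Members were named if they had a mean of at least 1 RPM in a wild-type stage or dcl1-5, or 1 RPM in leaf or floral bud, passed the dcl1-5 threshold, were among the 5 largest called changes of a phase contrast in a direction, or had a replicated site. Members at 1 RPM in leaf or floral bud alone were mostly counted. Coordinates are those of TAIR10.1, since the tables give names only. Libraries made from diluted RNA entered no test.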

Additional observations from a re-analysis of the deposited data

Results flagged for a closer look

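Bent cotyledon RNA diluted to 50, 5, 1 and 0.5 ng had been sequenced outside the stage comparisons. At least 3 reads, the limit that a count of 0 allows, were found for 35 members at 50 ng, 19 at 5 ng, 9 at 1 ng and 5 at 0.5 ng. These libraries held 11426006, 4541069, 514714 and 1025140 genome-matching reads, respectively, so input and depth cannot be told apart in these counts. miR5024-3p had 134, 75.5, 13.6 and 63.4 RPM in the 50, 5, 1 and 0.5 ng libraries, against 63.9 to 108 RPM in the 3 bent cotyledon libraries. miR3434-5p had 8.66, 6.39, 0 and 38.0 RPM, against 4.27 to 6.69 RPM.

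Reads of 25 to 30 bases, which no comparison used, numbered at least 3 in a wild-type embryonic library for 15 members. miR8176 had 226 such reads, of which 70 were in globular library 3, and miR8165 had 89, of which 58 were in the same library.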

How the results depend on the processing

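Of the alternatives for 22 single-member results (the calls in dcl1-5 and the largest called changes between phases), 647 kept direction and side of the threshold, 38 lost the call and 4 reversed. Alternatives in which a member was filtered out or had no adjusted p are not in these totals. miR8183 in dcl1-5 reversed with TMM factors (0.18, log2), scaling to total miRNA (1.84) and DESeq2's own size factors (2.25), and miR5020c into transition with 20- to 22-base reads (0.72). Causes were not tested unless the setting itself shows them.

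Detection fell to 39 at a stage mean of 1 RPM, and the class of mostly 23- to 24-base reads to 14 at a share of 0.8 and 24 at 100 reads. Members lower in dcl1-5 (4) numbered 0 with TMM, 0 scaled to total miRNA, 1 with DESeq2's own factors and 20 with all 27 libraries fitted. Members higher (0) numbered 2 scaled to total miRNA, 13 with DESeq2's own factors, 1 with limma on log2(RPM + 1) and 1 with all 27 libraries. With 20- to 22-base reads, members lower (5) numbered 0 with TMM, 0 scaled to total miRNA, 1 with DESeq2's own factors and 13 with all 27 libraries. With 23- to 24-base reads, members lower (0) numbered 2 with DESeq2 on genome-matching reads, 1 and 2 with limma (pseudocounts 1 and 0.1), 2 with filterByExpr and 8 with all 27 libraries. Members differing by stage (34) numbered 52 with limma at 0.1. Into transition, members higher (15) numbered 30 with DESeq2 on genome-matching reads and 31 and 44 with limma, and members lower (4) numbered 9 with TMM, 10 scaled to total miRNA, 9 and 8 with DESeq2 (own and genome-matching factors) and 2 with 20- to 22-base reads. TMM gave 11 higher beside those 9. Into mature green, members higher (15) numbered 27 scaled to total miRNA, 37 with DESeq2's own factors, 23 with limma at 0.1 and 8 with filterByExpr, and members lower (4) numbered 2 with TMM, 2 and 7 with DESeq2. Members with a replicated site (1) numbered 0 at 0.01, 0 in all 3 replicates and 5 in at least 1 library.

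Leaving out 1 library gave 31 to 44 members differing by stage, 11 to 20 higher and 4 to 9 lower in transition, 7 to 21 higher and 1 to 6 lower in mature green, 2 to 5 lower and 0 higher in dcl1-5, 3 to 5 lower with 20- to 22-base reads and 0 to 2 with 23- to 24-base reads. Without a replicate number, 116 to 118 were detected, 37 to 39 were mostly 23- to 24-base and 0 to 1 had a replicated site, the last chosen after seeing the data. The counts moved over 1.5 times without dcl1-5 2 (2 lower, and 3 with 20- to 22-base reads), globular 1 (2 lower with 23- to 24-base reads), globular 2 (9 lower in transition), preglobular 2 (8), mature green 2 (7 higher, 2 lower), mature green 1 (1 lower) and mature green 3 (2 lower).

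With the replicate block, 1 member was lower in dcl1-5, and 3 with 20- to 22-base reads. The numbers mark no stated pairing: deviations of same-numbered globular and dcl1-5 libraries correlated at 0.183 on average, with 1 of 3 pairs at or below 0.1.

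Depth limits what can be called: in early heart 3 reads are 1.01 to 1.80 RPM, and 65 members had fewer than 20 reads for a length class.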

Other observations

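On chromosome 4, 4 members lay within 46104 bases: miR5026, miR5996 (chr4:7882848-7882869, minus strand, in an exon of UNE15 outside the coding sequence), miR3932b-3p and miR3932b-5p. Stage means of miR5026, miR3932b-5p and miR3932b-3p were highest in late torpedo (205, 24.2 and 0.273 RPM), and that of miR5996 in bent cotyledon embryos (2.87 RPM). In leaf, miR5026, miR5996 and miR3932b-5p had 258, 33.5 and 27.6 RPM, and miR3932b-3p had no read. This neighbourhood was noticed after the values were seen, and no test was made of it.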
